A study of Danio rerio with 37 samples.

Results

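The embryos described here are zebrafish whole embryos of the experiment labelled with the RNA-cutting enzyme RfxCas13d and 50 pg of GFP, which had a knockdown arm and a control arm. They were chosen by their sample titles, which gave 3 knockdown and 3 control libraries, or 6 of the 37 libraries of the series. Embryos were collected 6 hours after fertilization, per the labels, which is the onset of gastrulation. The other libraries used an RfxCas13d group with 10 pg of GFP and groups of 2 further effectors, DjCas13d and Cas7-11, with 10 pg or 50 pg. The control embryos shared the effector name and the GFP dose with the knockdown embryos, but what else they received, the strain, the number of embryos pooled per library and the guide RNA were not stated in the labels. The design text of the series speaks of maternal mRNA clearance when primary miR-430 is knocked down, but the titles of these 6 libraries name GFP alone, so GFP was measured first.

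Cas13 enzymes are CRISPR effectors that a guide RNA directs to a matching RNA. Some of them, once activated by a target, also cut other RNAs in the same cell, which is called collateral activity. An early zebrafish embryo runs on mRNA and protein loaded into the egg, starts transcribing its own genome at the midblastula stage and removes most egg-supplied mRNA by the time it gastrulates. Messages that the oocyte made and messages that the embryo makes therefore trade places in the hours before the stage sampled here.

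GFP was lower in all 3 knockdown libraries than in any of the 3 controls. In TPM (abundance relative to transcript length and library) it stood at 4226, 10690 and 21930 in control replicates 1 to 3 and at 446, 121 and 130 in knockdown replicates 1 to 3. The group means were 12282 ± 8958 and 232 ± 185 TPM (SD, n = 3 each). The control libraries differed among themselves about as much as their mean, and knockdown replicate 1 held the most GFP of its arm. In the counts GFP fell by 6.16 ± 0.85 on the log2 scale (SE; edgeR quasi-likelihood test, adjusted p = 1.39e-05). A two-sided exact permutation test of log2(TPM + 1) gave p = 0.1, the smallest that 3 against 3 libraries allow.

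The knockdown libraries were spread over more genes than any other library of the series. Between 8536 and 9288 genes reached 10 CPM (counts scaled to library size) in the knockdown, against 6961 to 7592 in its controls and 7089 to 8083 in the other 31 libraries. The 100 most abundant genes took 21.0% to 25% of gene reads in the knockdown, 26.5% to 32.2% in its controls and 25.6% to 33.0% elsewhere. Reads assigned to genes numbered 7498372, 8018285 and 5627315 in the controls and 5781444, 3944559 and 6553602 in the knockdown. TMM scaling, which sets libraries equal on the bulk of their genes, gave factors of 0.822, 0.837 and 0.967 in the controls and 1.16, 1.40 and 1.42 in the knockdown. Under TMM the median log2 fold change of all genes tested was 0.05. Scaled by library size alone it was 0.64. Each fold change below is on the TMM scale and lies about that shift lower than it would by library size.

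**Figure D1:**
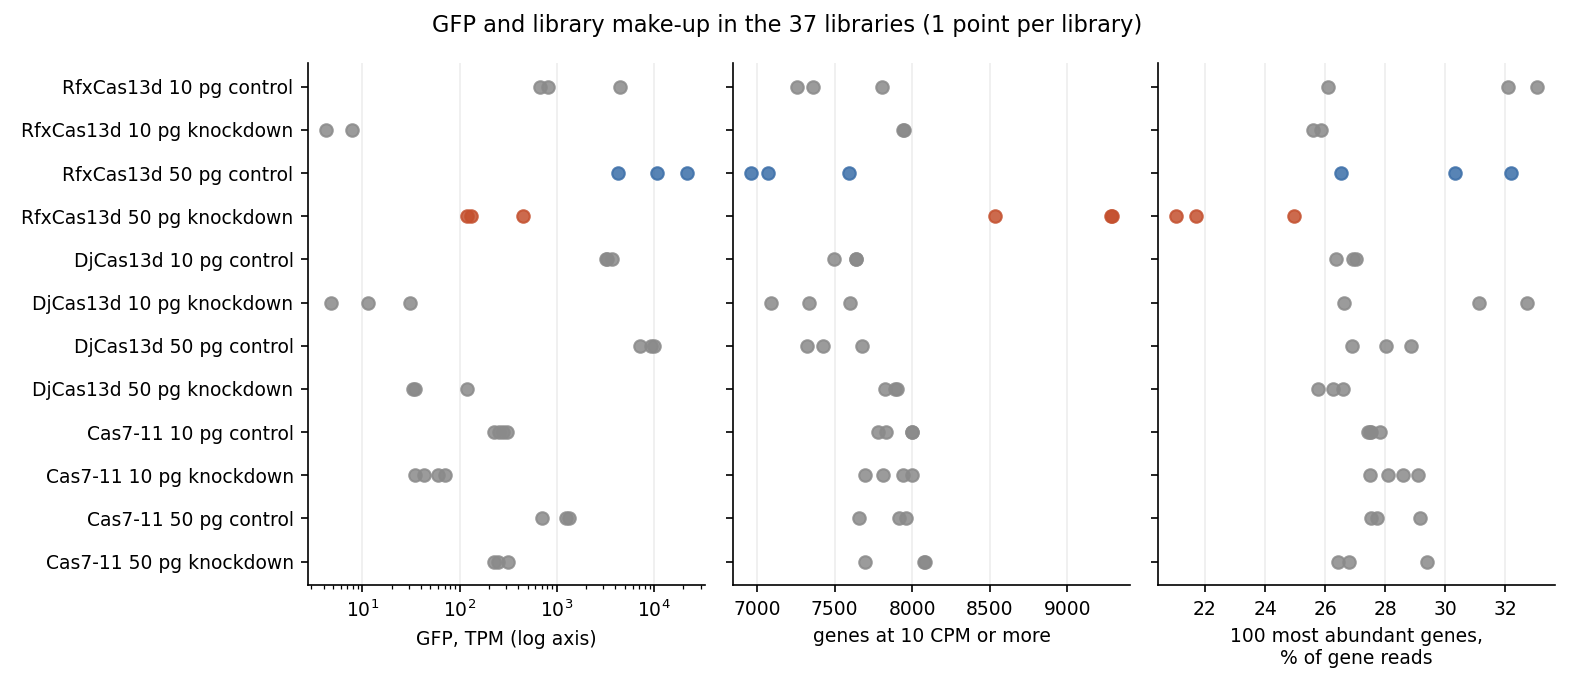
GFP in TPM (log axis, left), genes at 10 CPM or more (middle) and the share of gene reads held by the 100 most abundant genes (right), with 1 point per library and 1 line per group. The 3 RfxCas13d 50 pg knockdown libraries (orange) held more genes at 10 CPM, 8536 to 9288, and a smaller share in their top 100, 21.0% to 25%, than the other 34 libraries.

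malat1, a long noncoding RNA kept in the nucleus, marked control replicate 1 off from the other controls of the group. On the TMM scale it stood at 7103, 1977 and 1091 CPM in the controls and at 641, 298 and 530 CPM in the knockdown. The 16 control libraries of other groups ranged from 585 to 6871 CPM. Mitochondrially encoded mRNAs held 5.03%, 2.79% and 1.13% of gene reads in the controls and 4.21%, 3.32% and 4.58% in the knockdown. malat1 was lower in the knockdown by -2.79 ± 0.63 on the log2 scale (adjusted p = 0.000473), and with control replicates 1 and 2 left out the difference was -1.14 with an adjusted p of 0.215. Without the 5 malat1-rich libraries of the series, control replicate 1 among them, 4616 genes were higher and 4644 lower in the knockdown, 8550 of them called in the same direction as with all libraries and 0 in the opposite one.

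Of 16321 genes tested, 9594 (58.8%) differed between the arms, 4900 (30%) of them higher and 4694 (28.8%) lower in the knockdown. That balance depended on the scaling: by library size 7380 were higher and 2529 lower, and in limma on log2(TPM + 1) 8059 and 2062. By 16-fold or more, 317 of the 16321 genes were higher and 89 lower on the TMM scale. A gene near 0 in 1 arm could enter the test through the other arm alone, and its fold change then rests on few reads. All 3 knockdown libraries lay on the same side of all 3 controls in 7943 of the 9594, and in 8615 (52.8%) of all genes tested. These calls used the spread of all 37 libraries, a biological coefficient of variation of 0.253, whereas the controls and the knockdown libraries compared here varied by 0.336 and 0.346. With the 6 libraries alone, 6012 of 13438 genes (44.7%) passed, 3167 higher and 2845 lower. Of these, 5988 were called in the same direction in both fits and 0 in opposite directions. Whether replicates were separate clutches is not stated in the labels, and p-values therefore reflect only the spread between these libraries, which may be technical.

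The calls were compared across choices of controls. With the 3 DjCas13d 50 pg controls put in their place, 4444 genes were higher and 4345 lower, 7765 of them called in the same direction as before and 3 in the opposite one. Set directly against those DjCas13d controls, 12 genes were higher and 36 lower in the RfxCas13d 50 pg controls. Against the RfxCas13d 10 pg controls, 118 were higher and 159 lower, a difference that enters the comparison of responses with RfxCas13d 10 pg below. With the 6 libraries alone and control replicate 1 left out, 2575 genes were higher and 2169 lower. With control replicates 1 and 2 left out, so that control replicate 3 stood alone and was assumed to vary like the other groups, 2859 were higher and 3187 lower.

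Of 5 marker genes, 3 messages of the oocyte and germ line stood far higher in the knockdown, and a ribosome assembly gene and an ectoderm transcription factor stood lower. These markers were chosen with earlier results of these data known, and their values are descriptions. btg4 (ENSDARG00000035171 in the tables) encodes an adaptor that brings the CCR4-NOT deadenylase to maternal mRNAs during their clearance. It stood at 5.20, 4.92 and 2.21 CPM in the controls and at 103, 167 and 187 CPM in the knockdown, with no overlap, and rose by 5.19 ± 0.39 (log2, SE; adjusted p = 1.92e-11).

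buc encodes Bucky ball, which organizes the Balbiani body of the oocyte and the germ plasm. Its level was 9.91, 9.10 and 12.7 CPM in the controls and 174, 387 and 432 CPM in the knockdown. dazl encodes an RNA-binding protein of germ cells. It was at 6.01, 6.42 and 5.52 CPM in the controls and 74.5, 69.2 and 118 CPM in the knockdown. For both, each knockdown library lay above the highest of the 16 other controls, 17.3 CPM for buc and 17.2 CPM for dazl. buc rose by 4.97 ± 0.46 and dazl by 3.86 ± 0.37 (log2; adjusted p = 9.79e-10 and 9.8e-10).

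pes encodes pescadillo, an assembly factor of the large ribosomal subunit. It was at 343, 269 and 274 CPM in the controls and 67.5, 49.4 and 30.7 CPM in the knockdown. It fell by 2.59 ± 0.20 on the log2 scale (adjusted p = 3.11e-11). The other 16 controls held 158 to 231 CPM, so the controls of this experiment stood above them and the knockdown below them.

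dlx3b, a homeobox gene of the border of the neural plate, was at 65.6, 39.4 and 3.31 CPM in control replicates 1 to 3 and at 0.90, 0.18 and 0.22 CPM in the knockdown, 9 reads in all. The 16 other controls held 2.0 to 23.8 CPM, so control replicates 1 and 2 lay above all of them and the knockdown below all of them. It fell by 6.38 ± 1.23 on the log2 scale (adjusted p = 7.19e-05). With control replicates 1 and 2 left out the difference was -2.93 with an adjusted p of 0.152, so the size of this fall rested on those libraries.

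**Figure D2:**
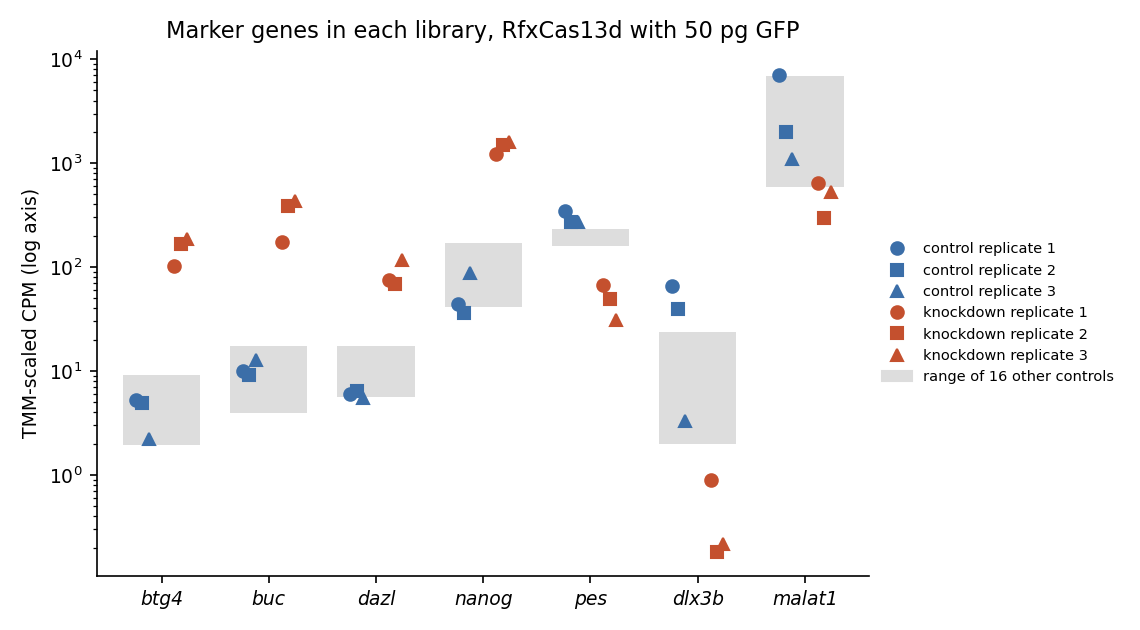
TMM-scaled CPM (log axis) of 7 genes in the 3 control (blue) and 3 knockdown (orange) libraries, with the range of the 16 other control libraries in grey. btg4, buc, dazl and nanog in the knockdown lie above the grey range and pes and dlx3b below it, while 1 knockdown library overlaps the range of malat1.

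Among genes that gained the most CPM, nanog led. nanog encodes a homeobox transcription factor that the egg supplies and that helps to start zygotic transcription. It was at 43.9, 35.8 and 86.8 CPM in the controls and 1228, 1482 and 1598 CPM in the knockdown, against at most 169 CPM in the other controls. Its rise was 4.70 ± 0.55 (log2; adjusted p = 5.28e-08). mxtx2, a homeobox gene of the yolk syncytial layer, rose by 4.98 ± 0.77, from 2.11, 2.69 and 14.5 CPM in the controls to 265, 95.9 and 235 CPM (adjusted p = 3.94e-06).

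The other genes with large gains in CPM had varied roles. lamp2, a lysosomal membrane protein, went from a mean of 267 ± 11.1 to 1173 ± 74.3 CPM, and pfn2b, a profilin that binds actin, from 281 ± 30.5 to 1005 ± 7.59 CPM (SD, n = 3 each). cth1, a zinc finger protein of the family that binds AU-rich mRNA, rose by 4.28 ± 0.53 on the log2 scale, from 31.3 ± 10.7 to 608 ± 182 CPM. cldnd, a claudin of tight junctions, rose by 4.32 ± 0.49. h2af1al, a histone H2A variant, rose by 3.99 ± 0.48, from 31.5 ± 1.15 to 499 ± 176 CPM. mkrn4, gtf2a1 (a general transcription factor), nasp (a histone chaperone) and uhrf1 (which maintains DNA methylation) rose by 2.19, 1.92, 1.52 and 1.16. All of these passed with an adjusted p of 0.00839 or less in the 6-library fit too, the largest being that of uhrf1.

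The genes that lost the most CPM were abundant messages, which a ranking by CPM lost favours by its construction. eef1a1l1, translation elongation factor 1 alpha, was at 21361, 21666 and 14889 CPM in the controls and 7361, 3299 and 3089 CPM in the knockdown. It fell by 2.07 ± 0.21 on the log2 scale (adjusted p = 2.91e-09). hmga1a, a chromatin protein that binds AT-rich DNA, was at 15089, 18364 and 12937 CPM and then 6746, 3946 and 3187 CPM, and fell by 1.74 ± 0.19. For both genes the control and knockdown libraries did not overlap, and knockdown replicate 1 was the nearest to the controls.

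The RNA-binding proteins cirbpb, hnrnpa0b, hnrnpa0l and khdrbs1a fell by 1.62, 1.79, 1.06 and 1.54 on the log2 scale. The chaperone hspa8 fell by 1.14 ± 0.14 and the chromatin proteins anp32e and hmgb2a by 1.86 ± 0.16 and 1.81 ± 0.17. apoeb, an apolipoprotein made by the yolk syncytial layer, fell from 5426 ± 1629 to 1518 ± 1028 CPM, and h3f3a, a replication-independent histone H3, from 5251 ± 1685 to 2002 ± 1099 CPM. With the 6 libraries alone and control replicate 1 left out, h3f3a and hnrnpa0l did not pass (adjusted p = 0.0529 and 0.0836).

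Pairs of paralogs in which 1 member is used by the oocyte and the other by somatic cells gave a measure that no scaling between libraries touches, the oocyte-type share of the TPM of the pair. The pairs and the lists below were chosen with earlier results of these data known and are descriptions. Of 9 pairs with both members in the tables, 8 had a higher oocyte-type share in every knockdown library than in any of the 3 controls, and in 7 the share also exceeded that of the 16 other controls. The smallest two-sided exact permutation p of 3 against 3 libraries is 0.1, which these 8 pairs reached.

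Cyclin A1 (ccna1), the form of eggs and early cleavage, made up 22.6%, 22.5% and 39.5% of the cyclin A pair in the controls and 74.3%, 84.4% and 87.1% in the knockdown. The other controls held 19.3% to 49.1%. slbp2, the histone mRNA stem-loop binding protein of the oocyte, made up 0.924%, 0.851% and 0.497% of its pair with slbp in the controls and 13.5%, 25.7% and 28.8% in the knockdown. eif4e1b, the cap-binding protein of oocytes, went from a mean of 37% ± 15.7 to 81.3% ± 9.14 of its pair with eif4ea (SD, n = 3 each). Its controls were at 25%, 31.4% and 54.8%, and the other controls at 37.7% to 61.8%, so in some controls the oocyte form was already the larger one. In all 3 pairs each knockdown library held a larger oocyte-type share than any of these controls.

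mcm3l, the maternal form of a replication helicase subunit, went from 3.58% ± 1.43 to 45.6% ± 21.9 of its pair with mcm3. wee2, the oocyte kinase that inhibits Cdk1, was at 8.83%, 8.54% and 22.2% of its pair with wee1 in the controls and 25.5%, 60.3% and 45.3% in the knockdown, so that knockdown replicate 1 lay close to control replicate 3. tbpl2, the TATA-binding protein of oocytes, went from 1.57% ± 1.72 to 10.1% ± 1.77, and pabpc1l, the poly(A)-binding protein of oocytes, from 0.493% ± 0.349 to 3.98% ± 1.14. mcm6l rose above the 3 controls, from 48.1% ± 5.53 to 76.6% ± 12.6, but 1 or more of the other controls, at up to 74.1%, lay above its lowest knockdown library at 62.4%. npm2b, nucleoplasmin of the egg, overlapped between the arms, at 9.82% to 17.5% and 14.4% to 25.6% of its pair with npm1a (exact permutation p = 0.2).

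**Figure D3:**
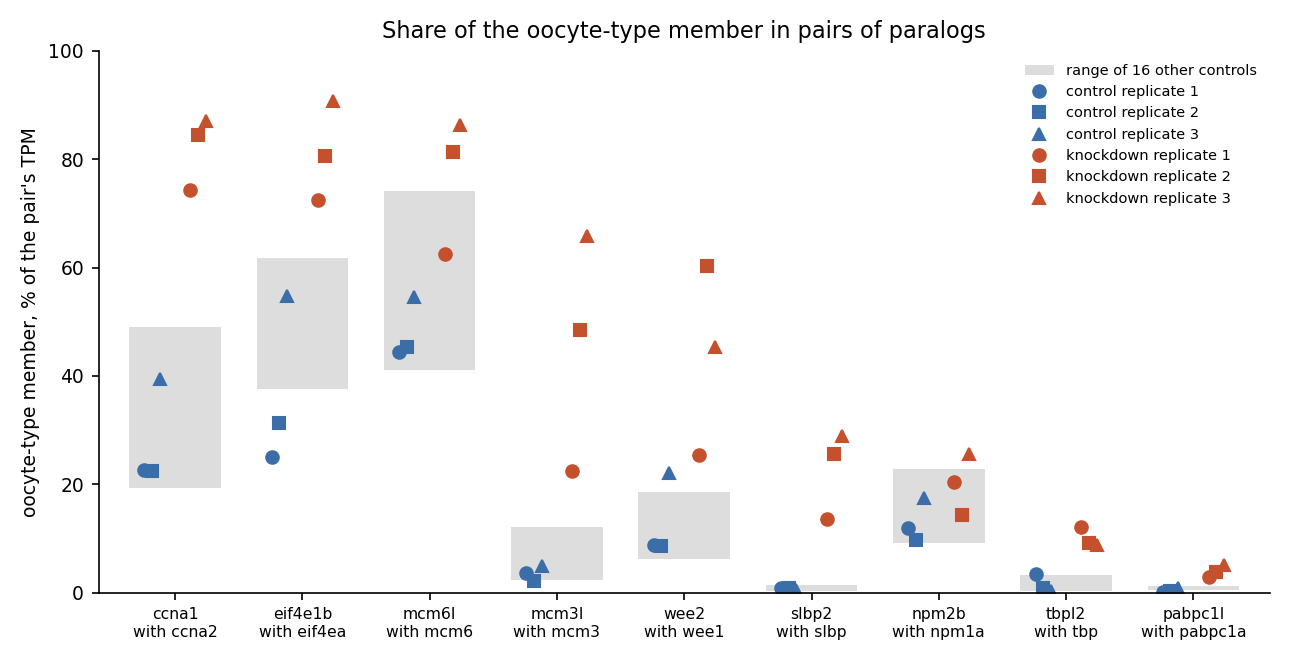
Oocyte-type member as a percent of the TPM of its pair in the 3 control (blue) and 3 knockdown (orange) libraries, with the range of the 16 other controls in grey. In 8 of 9 pairs the 3 knockdown libraries lie above the 3 controls, and the npm2b pair overlaps.

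In the counts, 9 of the 11 oocyte-type paralogs rose and 1, npm2b, fell, with a median log2 fold change of 2.28, where 30% of all genes tested rose and 28.8% fell. The call of npm2b was lost with the 6 libraries alone (adjusted p = 0.0871), in DESeq2 (adjusted p = 0.0618) and under several other alternatives. Of the 12 somatic counterparts, 2 rose and 9 fell, with a median of -1.34. slbp2 rose by 4.59 ± 0.50, tbpl2 by 3.89 ± 0.57 and h1m, the linker histone of the egg, by 2.60 ± 0.39. h1m was at 112, 116 and 293 CPM in the controls and 602, 1447 and 1116 CPM in the knockdown. mcm6l was level in CPM (-0.04 ± 0.30, adjusted p = 0.912), and the change of its share came with a fall of mcm6 by 1.79 ± 0.29. The 2 somatic members that rose, tbp and eif4eb, were named after their values were seen, at 1.06 ± 0.20 and 1.28 ± 0.26. ccna1 and eif4e1b passed with all 6 libraries, at 2.50 and 0.82. With control replicates 1 and 2 left out their log2 fold changes were 1.62 and 0.32. eif4e1b did not pass with the DjCas13d 50 pg controls in place (0.51, adjusted p = 0.0591), whereas ccna1 did. Nor did eif4e1b pass in the 6 libraries with control replicate 1 left out (adjusted p = 0.149). By library size the falls of ccna2 and slbp did not pass.

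Marker genes of the germ layers of the gastrula were mostly lower in the knockdown: 19 of 24 tested members fell and 2 rose, with a median log2 fold change of -1.49 on the TMM scale and -0.92 by library size. Of all genes tested, 28.8% fell and 30% rose, and each list count below stands against these shares. These shares changed with abundance. In 5 classes by level in the DjCas13d 50 pg controls, described below, 14.7% of the lowest class and 67.2% of the highest fell. The lists were not matched for abundance, so a list of abundant genes can exceed 28.8% without differing from other abundant genes. The same list gave 13 lower and 1 higher with the 6 libraries alone, and 15 lower and 0 higher both with the DjCas13d 50 pg controls and without control replicate 1. The summed TPM of the list was 9119 to 10845 in the controls, 3794 to 6611 in the knockdown and 9015 to 10964 in the other controls. The list also holds genes of the enveloping layer and the yolk syncytial layer, and abundant members weigh most in the sum. The enveloping layer gene krt4 had means of 5732 CPM in the controls and 1144 in the knockdown, against 164 and 23.8 for eve1. In whole embryos, fewer cells of a type and less RNA per cell cannot be told apart.

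eve1, a ventral and posterior mesoderm gene, was at 165, 170 and 156 CPM in the controls and 37.5, 25.8 and 8.20 CPM in the knockdown, and fell by 2.79 ± 0.28 on the log2 scale (adjusted p = 2.19e-09). sox2, a transcription factor of the neural plate, was at 109, 122 and 129 CPM and then 41.4, 17.8 and 7.45 CPM, and fell by 2.45 ± 0.29. In both genes the order of the knockdown libraries was the same, with replicate 1 highest and replicate 3 lowest. krt4, a keratin of the enveloping layer, was at 7554, 6231 and 3410 CPM in the controls and 1935, 763 and 735 CPM in the knockdown, and fell by 2.32 ± 0.27. cldne, a claudin of the same layer, fell by 1.49 ± 0.18.

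Other members, named here outside the naming rule given below, were genes of the mesendoderm, mesoderm, ectoderm and yolk syncytial layer. tbxta and tbx16, T-box genes of the mesoderm, fell by 1.66 ± 0.24 and 1.27 ± 0.16, and bmp4, a ventral signal, by 1.85 ± 0.28. otx2b, of the anterior neural plate, went from 36.8 ± 16.5 to 4.30 ± 4.92 CPM, and apoc1, an apolipoprotein of the yolk syncytial layer, from 819 ± 323 to 126 ± 87.8 CPM. The 2 members that rose, named after their values were seen, were mixl1, a mesendoderm homeobox gene (from 67.4 ± 45.8 to 176 ± 52.9 CPM, adjusted p = 0.0361), and vent, a ventral repressor (from 54.6 ± 15.8 to 86.0 ± 11.8 CPM, adjusted p = 0.0167). The dorsal genes gsc and noto and the ectoderm gene gata3 did not pass, at -0.08 ± 0.28, 0.18 ± 0.28 and -0.36 ± 0.18. chrd, the dorsal BMP antagonist, fell by 1.03 ± 0.30 in the fit of 37 libraries (adjusted p = 0.00413) and had an adjusted p of 0.0991 in the 6-library fit.

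Genes of tissues that form later were near the limit of detection in both arms. Of 32 such genes in the tables, 5 had enough reads to be tested and 7 were at 0 in all 6 libraries. Their summed TPM was 15.5 to 24.5 in the controls, 24.3 to 29.8 in the knockdown and 10.0 to 27.8 in the other controls. tnnt3a, a troponin of skeletal muscle, was the 1 gene that passed, at 1.53 ± 1.22 and 5.25 ± 0.93 CPM. It did not pass with the DjCas13d 50 pg controls in place (adjusted p = 0.0508). Against those controls mpz and myhz2 passed as lower instead, at -0.90 and -3.30 (adjusted p = 0.0108 and 0.00368). myhz2 had 2 reads over the 3 knockdown libraries.

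Genes of gastrulation movements and cell adhesion were called lower in 22 of 41 cases and higher in 3, against 28.8% and 30% of all genes, with a median of -1.28. prickle1a, a planar cell polarity protein, fell by 2.44 ± 0.26, from 101 ± 10.4 to 18.7 ± 8.05 CPM. gpc4, a glypican that aids Wnt11 signalling, fell by 1.66 ± 0.18, pcdh18b, a protocadherin, by 1.66 ± 0.21, and itga5, the fibronectin receptor subunit, by 1.28 ± 0.15. The 3 genes that rose, named after their values were seen, were blf (2.12 ± 0.42), itgb1b.1 (1.63 ± 0.58) and cdh1 (0.48 ± 0.14), which encodes E-cadherin. Of these, only blf passed in the 6-library fit, with an adjusted p of 0.00384. In limma on log2(TPM + 1) the median of the list was 0.02, which stood 0.58 below that of all genes. In the counts it stood 1.33 below that of all genes. The summed TPM of the list overlapped between the arms, at 2685 to 4081 in the controls and 3164 to 3524 in the knockdown.

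Subunits of RNA polymerase II, which transcribes mRNA, fell in 11 of 14 cases and rose in 2, with a median of -1.36. With the DjCas13d 50 pg controls in place 10 fell and 1 rose. The summed TPM of the list was 2701 to 3212 in the controls and 2012 to 2752 in the knockdown. In the other controls it was 1943 to 2718, so the knockdown lay near their range. polr2h was at 133, 160 and 150 CPM in the controls and 64.2, 22.9 and 28.7 CPM in the knockdown. It fell by 1.93 ± 0.21 on the log2 scale (adjusted p = 7.44e-09). The other controls held 79.8 to 116 CPM, so the controls of this experiment stood above them and the knockdown below them. Its log2 fold change against the DjCas13d 50 pg controls was -1.39. polr2b, the second largest subunit, fell by 1.47 ± 0.18. The 2 that rose, named after their values were seen, were polr2i (0.69 ± 0.22) and polr2m (1.24 ± 0.29). Of the subunits of RNA polymerases I and III, 9 of 19 fell and 3 rose, with polr3glb lower by -2.27 ± 0.27 and POLR3D higher by 2.07 ± 0.27.

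In the list of histone variants and linker histones 9 of 11 fell, and h1m was the 1 that rose. The H2A variant h2af1al, which rose by 3.99, was not in that list. The summed TPM of the list overlapped, at 15636 to 19453 in the controls and 12906 to 18238 in the knockdown. Among chromatin regulators, 22 of 47 fell and 11 rose, with a median of -0.42. smarca4a, the ATPase Brg1 of the SWI/SNF remodeller, was at 1212, 1286 and 1239 CPM in the controls and 441, 366 and 221 CPM in the knockdown, and fell by 1.86 ± 0.16. CHD7, another remodeller, fell by 1.58 ± 0.16, and dnmt3ba, a de novo DNA methyltransferase, by 1.74 ± 0.19. brd2b, a bromodomain reader of acetylated histones, rose by 3.18 ± 0.32, from 3.58, 4.18 and 3.50 CPM to 15.1, 55.2 and 32.4 CPM.

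Translation factors fell in 43 of 81 cases and rose in 12, with a median of -0.50 that became 0.09 by library size. eif3ba and eif3s10, subunits of the initiation factor eIF3, fell by 2.11 ± 0.17 and 1.94 ± 0.17. eif4g2b, a cap-independent initiation factor, fell by 1.51 ± 0.12. eif4ebp2, which binds eIF4E and represses translation, rose by 2.14 ± 0.17, from 37.9, 40.9 and 46.9 CPM to 132, 185 and 234 CPM. Mitochondrial ribosomal proteins fell in 35 of 76 cases and rose in 9, and proteasome subunits fell in 24 of 43 and rose in 5. These counts are on the TMM scale, and by library size the medians of the 2 lists were 0.23 and 0.14. The summed TPM of the mitochondrial ribosomal list was higher in the knockdown, at 3314 to 3721 against 2678 to 3110 in the controls. That of the proteasome list overlapped, at 4421 to 5364 in the knockdown and 3637 to 5144 in the controls. The share called in either direction among the mitochondrial ribosomal proteins was near the 58.8% of all genes, with more of the calls lower. mrpl44 fell by 1.87 ± 0.21 while mrpl48 rose by 2.49 ± 0.27, and psmc6, an ATPase of the proteasome base, fell by 1.68 ± 0.22. Cytosolic tRNA synthetases were lower in 6 of 20 cases, near the 28.8% of all genes, and higher in 3.

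In the CCT chaperonin, which folds actin and tubulin, 5 of 9 entries fell and 0 rose, and cct2 fell by 1.31 ± 0.17. The list median was -0.59 by TMM, -0.06 by library size and 0.27 in limma on log2(TPM + 1). By library size cct5 and cct6a did not pass in edgeR (adjusted p = 0.583 and 0.0617). In limma cct4, cct5 and cct6a did not pass (adjusted p = 0.21, 0.912 and 0.237). The summed TPM of the list overlapped, at 1751 to 2140 in the controls and 1958 to 2114 in the knockdown. Nuclear pore genes fell in 9 of 22 cases and rose in 1, with nup107 lower by -1.81 ± 0.17. Nucleotide synthesis genes fell in 10 of 26 cases and rose in 8, with impdh1b, of guanine nucleotide synthesis, lower by -2.22 ± 0.28. In the ubiquitin and SUMO pathway 16 of 48 fell and 12 rose, near the 28.8% and 30% of all genes. There cul3b, a cullin scaffold, rose by 1.0 ± 0.12.

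Medians of the translation, mitochondrial ribosome, proteasome, polymerase I and III, nuclear pore, chromatin, nucleotide, tRNA synthetase, actin, ubiquitin and ER lists lay below 0 under TMM and above 0 by library size. Relative to the median of all genes they lay below it under both, between -0.55 and -0.16 by TMM and between -0.55 and -0.19 by library size. The lists of polymerase II, histone variants, germ layers, gastrulation movements, tubulins and somatic paralogs lay below 0 under both scalings. So did the CCT chaperonin and later tissue lists, the latter with 5 tested genes, at -0.06 and -0.05 by library size. In limma on log2(TPM + 1) gastrulation movements, CCT chaperonin and later tissues lay above 0, at 0.02, 0.27 and 0.11. The others of these lists lay below 0 there too.

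**Figure D4:**
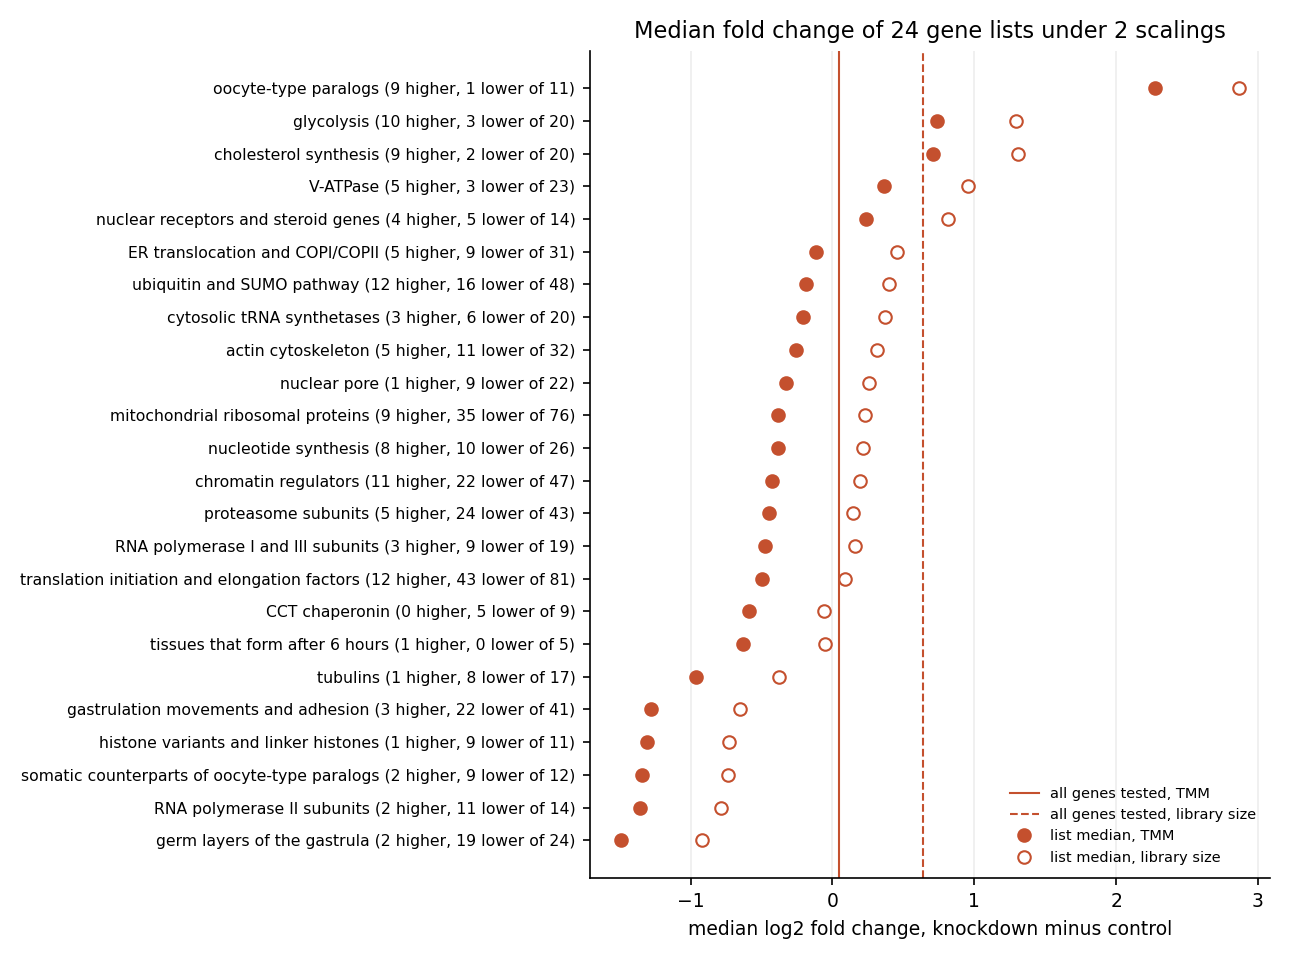
Median log2 fold change of each of 24 gene lists under TMM (filled) and library size (open), with the medians of all genes as vertical lines at 0.05 and 0.64, and the counts of members higher and lower at the threshold in the labels. Oocyte-type paralogs lie furthest to the right, at 2.28 under TMM, and germ layer genes furthest to the left, at -1.49.

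Glycolysis and cholesterol synthesis stood above the median of all genes under both scalings. Of 20 tested glycolysis genes, 10 rose and 3 fell, with a median of 0.74 by TMM and 1.29 by library size. pgk1, phosphoglycerate kinase, was at 9.26, 8.95 and 9.75 CPM in the controls and 52.2, 61.6 and 87.4 CPM in the knockdown, and rose by 2.85 ± 0.29 (adjusted p = 2.36e-09). gapdh rose by 1.61 ± 0.17, from 205 ± 16.3 to 623 ± 179 CPM, and hk2, a hexokinase, by 2.47 ± 0.32. The aldolase aldoaa fell by 1.28 ± 0.15. The hexokinase hk1, named after its values were seen, fell by 1.96 ± 0.32, so hk1 and hk2 moved in opposite directions.

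Of 20 tested genes of cholesterol synthesis, 9 rose and 2 fell, with a median of 0.71. hmgcs1, HMG-CoA synthase, was at 13.2, 12.1 and 12.7 CPM in the controls and 45.4, 122 and 88.3 CPM in the knockdown, and rose by 2.75 ± 0.33. nsdhl, a later enzyme of the pathway, rose by 3.28 ± 0.43, from 2.60, 2.98 and 1.1 CPM to 14.8, 22.2 and 28.8 CPM. The 2 that fell were among the more abundant members of the list: idi1, at 312 ± 38.0 and 91.9 ± 46.4 CPM, and cyp51, at 91.4 ± 14.2 and 30.3 ± 13.2 CPM. Their falls were 1.76 ± 0.19 and 1.60 ± 0.24 on the log2 scale. The other controls held 180 to 247 CPM of idi1, below all 3 controls of this experiment and above the knockdown. For cyp51 they held 34.7 to 86.6 CPM, a range that included knockdown replicate 1 at 45.4 CPM. Against the DjCas13d 50 pg controls the log2 fold changes were -1.26 for idi1 and -0.88 for cyp51.

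In the cytoskeleton, 8 of 17 tubulins fell and 1 rose, and 11 of 32 actin genes fell and 5 rose, the actin share of falls being near the 28.8% of all genes. tuba5 and tuba8l4, alpha tubulins, fell by 1.87 ± 0.25 and 1.70 ± 0.26. Near-identical tubulin copies can share reads, so single tubulin values are uncertain. ezrb, an ezrin that ties actin to the membrane, rose by 3.22 ± 0.24, from 20.6, 17.2 and 21.0 CPM to 113, 264 and 171 CPM, whereas the related moesin gene msna fell by 1.47 ± 0.18. tpm1, a tropomyosin, rose by 2.92 ± 0.25. In the V-ATPase, the proton pump of lysosomes, 5 of 23 rose and 3 fell, and in ER translocation and COP coats 5 of 31 rose and 9 fell, the latter again near the share of all genes. atp6v1c1b rose by 2.71 ± 0.40 and ssr2, a translocon subunit, fell by 1.5 ± 0.18.

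Nuclear receptors were few and low. Of 14 tested, 4 rose and 5 fell, and the sign of their median depended on single libraries. raraa, a retinoic acid receptor, was lower by -2.38 ± 0.35, at 39.8 ± 25.6 and 7.66 ± 2.07 CPM. nr4a1, an immediate early gene, had 1 read over the 3 controls and 79 over the 3 knockdown libraries, while the other controls held 0.619 to 3.24 CPM.

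The direction of change went with how abundant a gene was in embryos that took no part in the comparison. A gene nearly absent from those embryos could enter the test only through a group where it was high, the knockdown included. The classes below therefore hold only the 12542 genes that passed the filter on reads through the 3 DjCas13d 50 pg controls alone, a choice made after seeing the data, and leave out 3779. They were divided into 5 classes of about equal size by their mean level in those controls. In the lowest class, up to 4.0 CPM, the median log2 fold change at RfxCas13d 50 pg was 0.59, with 38.7% of genes higher and 14.7% lower. The medians of the next classes were 0.45, 0.01 and -0.30. In the highest class, from 78.5 CPM up, the median was -0.77, with 6.46% of genes higher and 67.2% lower. By library size the medians of the lowest and highest class were 1.19 and -0.19. At RfxCas13d 10 pg the same medians were 0.08 and -0.06.

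By gene length, estimated from the ratio of counts to TPM in 12525 genes, no such trend was seen. The medians of 5 classes, from short to long, were -0.30, -0.08, 0.01, -0.01 and -0.19.

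**Figure D5:**
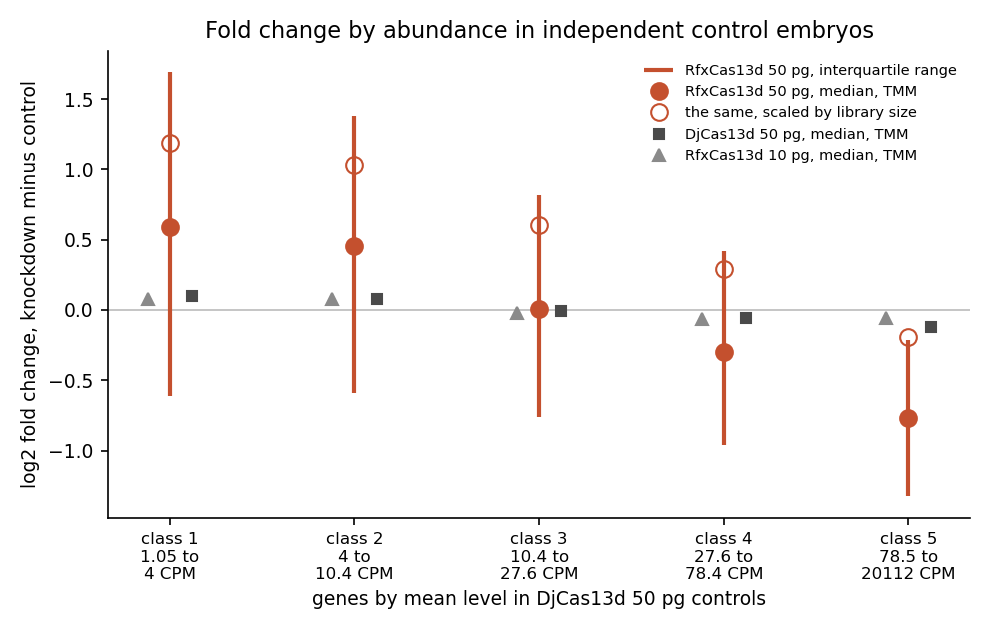
Median log2 fold change (filled circles, TMM; open circles, library size) and interquartile range (bars) at RfxCas13d 50 pg in 5 classes of genes by level in the DjCas13d 50 pg controls, with the medians at DjCas13d 50 pg (squares) and RfxCas13d 10 pg (triangles). The TMM medians at RfxCas13d 50 pg go from 0.59 in the lowest class to -0.77 in the highest. The DjCas13d controls that set the classes also enter the DjCas13d fold change.

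Genes that were nearly silent in every control of this experiment and present in every knockdown library were rare. Under 1 CPM in all 3 controls and at 10 CPM or more in all 3 knockdown libraries were 4 genes, and 0 showed the reverse. These genes were picked by their levels in these 6 libraries, so large rises were fixed in advance and are descriptions. f3b, tissue factor, which starts blood clotting, was at 0.16, 0.60 and 0.74 CPM in the controls and 11.2, 21.1 and 24.5 CPM in the knockdown. It rose by 5.23 ± 0.62. tnk2b, a tyrosine kinase, had 2 reads over the controls and 314 over the knockdown. The others were zgc:113293 and the unnamed ENSDARG00000109368, which rose by 4.77 ± 0.73 and 5.34 ± 0.54. In the 16 other controls these genes reached more than 1 CPM, at most 2.59 for f3b and 1.24 for tnk2b. The highest values there were 2.94 CPM for zgc:113293 and 3.03 CPM for ENSDARG00000109368. With the DjCas13d 50 pg controls in place the rise of tnk2b was 4.56, against 6.96 with its own controls.

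The 3 knockdown libraries did not respond to the same degree. Of the 9594 called genes, knockdown replicate 1 was the library nearest to the controls in 7060 (73.6%), replicate 2 in 1694 and replicate 3 in 840. The median shift of the called genes was 0.99 on the log2 scale in replicate 1 and 1.55 in both others. Replicate 1 was also the library with the most GFP left, 446 TPM against 121 and 130. On the control side, control replicate 3 was nearest to the knockdown in 5237 (54.6%). The root mean square distance from the mean of the 16 other controls was 0.82, 1.23 and 1.23 (log2) for the knockdown libraries and 0.75, 0.57 and 0.48 for the controls, against 0.30 to 0.70 for the other 31 libraries. All 3 knockdown libraries thus lay further out than any other library of the series, and control replicate 1 lay further out than any of those 31.

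The response differed from those at RfxCas13d 10 pg and at DjCas13d 50 pg, which share no control library with it. The difference between responses was tested for each gene in the same edgeR fit. It passed for 6645 genes (40.7%) against RfxCas13d 10 pg, 3230 higher and 3415 lower, and for 5427 genes (33.3%) against DjCas13d 50 pg, 2574 higher and 2853 lower. The RfxCas13d 10 pg knockdown itself gave 1142 genes higher and 1139 lower. DjCas13d at 50 pg gave 0 higher and 1 lower in edgeR, with 1528 of 16321 genes at an unadjusted p below 0.05. The pooled coefficient of variation, 0.253, lay above that of the DjCas13d 50 pg controls and knockdown, 0.142 and 0.126. It lay below that of the RfxCas13d 50 pg groups, 0.336 and 0.346, so these counts of calls cannot be compared directly. At 10 pg the knockdown has 2 libraries and 2 of its 3 controls are rich in malat1 (above 5000 CPM). Without all malat1-rich libraries 4345 genes differed from RfxCas13d 10 pg.

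All 5 markers passed this test in both comparisons, as did 33.3% of all genes against DjCas13d 50 pg and 40.7% against RfxCas13d 10 pg. The markers were chosen with earlier results of these data known, so their passing is a description. btg4 changed by 5.19 at RfxCas13d 50 pg, by 1.55 at DjCas13d 50 pg and by 0.84 at RfxCas13d 10 pg (log2), and the tested differences from those were 3.64 ± 0.52 and 4.36 ± 0.55 (adjusted p = 7.43e-06 and 1.03e-06). buc changed by 4.97, 1.31 and -0.10, and dazl by 3.86, 0.27 and -0.13. pes changed by -2.59, -0.32 and -0.25. nanog changed by 4.70, 0.77 and 0.01, and sox2 by -2.45, -0.47 and -0.47. The response of dlx3b differed by -4.71 ± 1.62 and -6.26 ± 1.65 (adjusted p = 0.0255 and 0.00353), and its control level rested on control replicates 1 and 2.

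Among the largest differences from DjCas13d 50 pg were tfa, ugt1b5 and col10a1a on the lower side and igfbp1a on the higher. tfa, transferrin, was at 142, 106 and 59.6 CPM in the controls and 9.59, 0.91 and 0.32 CPM in the knockdown. It fell by 4.87 ± 0.81 and changed by -0.57 with DjCas13d, a difference of -4.30 (adjusted p = 0.00199). ugt1b5, a glucuronosyltransferase, fell by 5.02 ± 0.67 against -0.24, and col10a1a, a collagen, by 3.20 ± 0.53 against 1.07. igfbp1a, an IGF-binding protein, rose by 3.27 ± 0.67 against -1.61, with knockdown values of 49.5, 5.63 and 13.7 CPM that differed widely among replicates.

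Among the largest differences from RfxCas13d 10 pg were cdx1a, nova2, twist2 and hoxb1b, all higher in control replicates 1 and 2 than in control replicate 3. cdx1a, a posterior homeobox gene, was at 84.0, 78.3 and 14.9 CPM in the controls and 3.60, 1.27 and 0 CPM in the knockdown, against 4.21 to 45.4 CPM in the other controls. It fell by 5.27 ± 1.0, and still passed with control replicates 1 and 2 left out, at -3.27 (adjusted p = 0.0342). nova2, a splicing factor of neurons, was at 90.5, 29.7 and 5.89 CPM in the controls and 1.80, 2.18 and 0.11 CPM in the knockdown, and did not pass without them. twist2 was at 7.64, 7.46 and 0.74 CPM in the controls and at 1.20, 0 and 0 CPM in the knockdown, and hoxb1b had 106 reads over the controls and 2 over the knockdown. Neither passed without those controls, and neither passed with the DjCas13d 50 pg controls in place.

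The genes with the largest positive differences from RfxCas13d 10 pg were low in the controls. Of the 5, only tango2 was itself called lower at 10 pg (adjusted p = 0.0401). trim35-29, a tripartite motif gene, was at 0, 1.64 and 2.21 CPM in the controls and 21.4, 30.5 and 31.1 CPM in the knockdown. It rose by 4.44 ± 0.63 and changed by -2.12 at 10 pg, a difference of 6.55 (adjusted p = 1.44e-05). tango2 rose by 4.17 ± 0.52 against -1.72, and ftr81, a fish tripartite motif gene, by 4.15 ± 0.58 against -1.47. fyna, a Src-family kinase, rose by 3.83 ± 0.53 against -1.44, and phactr2, which binds actin and protein phosphatase 1, by 3.41 ± 0.67 against -2.08.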

How the data were processed

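Groups were taken from the sample titles. The authors deposited a table of raw counts (whole reads per gene, not normalized) and a table of TPM values for each library. Per the labels, RNA came from a TRIzol extraction and went into directional (strand-marking) libraries. The build was danRer11, per the submitters' processing notes. Which aligner and counting tool were used, and with which strand mode, is not given in the sources used here, so overlapping, antisense and near-identical genes are uncertain. Entries that name no gene held 17.3% to 24.8% of reads in the 6 libraries and stayed out of library sizes and tests. Gene positions and sequences were not used here.

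The test was the edgeR 4.0.16 quasi-likelihood test, run in R 4.3.3 (filterByExpr on the 12 groups, TMM, robust fit of all 37 libraries with 1 coefficient per group). P-values were adjusted by Benjamini-Hochberg over all genes of a contrast, with a threshold of 0.05. The SE of a log2 fold change was derived from that test, as its absolute value divided by the square root of the F statistic. GFP was tested over the 23 libraries whose count tables list it. CPM values are TMM-scaled unless stated. TPM was used for GFP, for pair shares and, with limma 3.58.1 on log2(TPM + 1), as an alternative. DESeq2 1.42.0, library size, no filter, single libraries left out and the 6 libraries alone were other alternatives. Swapping the controls, leaving out controls 1 and 2 together, and leaving control 1 out of the 6 were added after seeing the data. Differences between responses were interaction contrasts.

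Genes are named by rule, except for further germ layer markers and those said to be named after their values were seen. The rule takes the markers, GFP and malat1, the paralog pairs, and up to 4 members of each list with the smallest adjusted p. It takes the 12 largest CPM gains and losses among called genes without overlap of the arms. It takes the 5 largest differences of response in each direction, where the log2 of the mean CPM over the 37 libraries was 1 or more. Last, it takes genes under 1 CPM in all controls and at 10 or more in all knockdown libraries. The members and lists were chosen with earlier results of these data known. Same-numbered control and knockdown libraries were not paired. A few genes that the rule names are not reported here.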

Additional observations from a re-analysis of the deposited data

Results flagged for a closer look

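The response at RfxCas13d 50 pg differed by an interaction test from that at RfxCas13d 10 pg in 6645 genes and from that at DjCas13d 50 pg in 5427. Differences (log2) were ranked among genes for which the log2 of the mean CPM was 1 or more. Against RfxCas13d 10 pg the largest positive differences were 6.55 in trim35-29, 5.88 in tango2, 5.62 in ftr81, 5.49 in phactr2 and 5.27 in fyna. The largest negative ones were -7.23 in hoxb1b, -6.44 in twist2, -6.28 in nova2, -6.26 in dlx3b and -6.25 in cdx1a. Hoxb1b had 2 reads over the 3 knockdown libraries, so the size of its fitted difference is uncertain. In these 5 genes control replicates 1 and 2 stood far above control replicate 3.

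Against DjCas13d 50 pg the largest positive differences were 5.35 in tmem38a, 4.99 in f3b, 4.89 in igfbp1a, 4.84 in arhgap32a and 4.67 in mxtx2. The largest negative ones were -5.17 in NTRK2, -4.78 in ugt1b5, -4.71 in dlx3b, -4.30 in tfa and -4.27 in col10a1a. NTRK2 had 5 reads over the 3 knockdown libraries, and the other 16 controls held 0.162 to 10.0 CPM. It changed by 1.88 at DjCas13d 50 pg, which was not called (edgeR, adjusted p = 0.492). Its fall was not called with the DjCas13d 50 pg controls in place (-1.24, adjusted p = 0.344). Tmem38a had 1 read over the 3 controls of this experiment, where the other 16 controls held 0.157 to 5.10 CPM. Its knockdown libraries, at 1.35, 2.73 and 3.13 CPM, lay within that range, and with the DjCas13d 50 pg controls in place its log2 fold change was -0.30. The same holds in part for arhgap32a, at 0.16, 0.15 and 2.21 CPM in its controls against 1.02 to 3.46 CPM elsewhere.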

How the results depend on the processing

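The counts were 4900 higher and 4694 lower. By library size they were 7380 and 2529 (74.5% of calls higher), and in limma on log2(TPM + 1) 8059 and 2062 (79.6%). With the 6 libraries alone they were 3167 and 2845 (52.7%), and without control replicate 1 as well 2575 and 2169 (54.3%). With control replicates 1 and 2 left out they were 2859 and 3187 (47.3%), and 3464 genes then differed in response from DjCas13d 50 pg. DESeq2 gave 54.0% higher, and the fit without malat1-rich libraries 49.8%. Leaving out single replicates gave 49.6% to 52.7%. Genes that differed from RfxCas13d 10 pg numbered 3709 in the libraries of that comparison alone and 4345 without malat1-rich libraries. GFP, for which library size, limma, the replicate block and each single replicate left out were run, was lower in all of these, at -7.09 to -5.70.

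Relative to all genes, list medians changed sign for nucleotide synthesis (0.24, control replicates 1 and 2 left out), ubiquitin and SUMO (0.056, limma), nuclear receptors (-0.073 in limma, and -0.32 to 0.34 with single replicates left out) and later tissues (0.56 in the 6 libraries, 0.28 without control replicate 1 as well, 0.27 with control replicates 1 and 2 left out). Of single genes, rxrbb (0.57), nup153 (0.20) and npm2b (0.085) changed sign in limma, npm2b (0.028) by library size and tmem38a (-0.30) with the DjCas13d 50 pg controls. The cause was not tested.

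Same-numbered libraries correlated at 0.128, -0.115 and 0.0721 in their deviations from the group means. A replicate block gave 4784 higher and 4603 lower, with GFP at -6.39, and changed no call among the 154 genes named by the rule. Depth limits genes of a few reads, such as hoxb1b, tmem38a, nr4a1 and tnk2b.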
